A study of Mus with 12 samples.

Results

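This account follows the gut homing receptor gene Ccr9 and 4 integrin subunit genes, Itga4, Itgb7, Itgae and Itgb1, in activated mouse CD8 T cells. These 5 genes were chosen by name from the 55487 mouse genes of the deposited expression table, and all 5 passed the filter for testing (13396 genes, each reaching 1 FPKM in 2 or more libraries). FPKM counts sequenced fragments relative to transcript length and to library size, so levels can be set side by side between genes. Naive splenic CD8 T cells of C57BL/6 mice were activated for 20 h on plate-bound anti-CD3 with anti-CD28 and IL-2, in medium with charcoal-stripped serum, and received either no retinoic acid (RA) or 15 nM all-trans RA. The cells were wild type (WT), without the AP-1 family factor BATF (BATF-KO), or without RARα, a nuclear receptor for RA, in T cells (RARα-KO, from a floxed Rara gene deleted by a Cre transgene that the distal Lck promoter drives). This gave 6 groups of 2 libraries, 12 in all, and the activation was shared by every group. How the BATF-KO line was made is not given in the sources used here, and the study kept both C57BL/6 and Cre-only mice as WT. The WT libraries used here held Cre at 0.07 FPKM or less, so these cells did not express it. RARα-KO therefore differed from WT in Cre as well as in Rara, and the parts of each cannot be told apart. The age of the animals and whether the replicates of a group came from separate mice are not given in the labels, so p-values measure only the spread between these samples.

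CCR9 is the receptor for CCL25, a chemokine made by the epithelium of the small intestine. The integrin chain α4 (Itga4) pairs with β7 (Itgb7) to bind MAdCAM-1 on gut venules, or with β1 (Itgb1) to bind VCAM-1 and fibronectin. The chain αE (Itgae, CD103) also pairs with β7 and binds E-cadherin on epithelial cells. RA made by gut dendritic cells is known to imprint CCR9 and α4β7 on T cells during priming, TGF-β is the known inducer of CD103, and naive mouse CD8 T cells already carry CD103. The comparisons therefore ask how RA acted on each gene within a genotype, and whether that depended on RARα or BATF.

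Between 12085 and 12487 genes reached 1 FPKM per library, and the r between replicates over all genes was 0.973 to 0.986. Batf was at 19.10 to 34.05 FPKM in the 8 libraries of WT and RARα-KO and at 4.05 to 4.90 FPKM in the 4 of BATF-KO. Rara was at 11.09 to 17.58 FPKM in the 8 WT and BATF-KO libraries and at 13.71 to 17.86 FPKM in the 4 of RARα-KO. The study states that T cells of the RARα-KO line still make Rara RNA without exon 8. A level over the whole gene need not show the loss of such a floxed part. Cre reads were at 0.13 FPKM or less in WT and BATF-KO. In RARα-KO they reached 824.25 and 680.90 FPKM without and with RA in replicate 1, against 79.29 and 86.67 FPKM in replicate 2, so the 2 RARα-KO replicates stood apart from each other. The 13 CD8 T cell markers summed to 4196 to 5226 FPKM in WT and BATF-KO and to 3332 to 4170 FPKM in RARα-KO. The 14 B cell markers summed to 270 to 473 FPKM in WT and BATF-KO and to 920 to 1153 FPKM in RARα-KO, and none of them was at 0 in any group. The 7 dendritic cell markers, which include MHC class II genes that B cells share, summed to 45.4 to 143 FPKM and to 546 to 618 FPKM in the same order. The 8 markers of erythroid cells and platelets summed to 142 to 476 FPKM in replicate 1 and to 11.4 to 26.6 FPKM in replicate 2 of every genotype. The part of these other cells in the values below was not tested. In such bulk samples, fewer cells of a type and less RNA per cell cannot be told apart.

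Ccr9 (ENSMUSG00000029530, chromosome 9, 123767211 to 123783457, GRCm38) was the member that responded to RA. In WT it was at 30.28 and 17.12 FPKM without RA, against 94.52 and 91.46 FPKM with it. BATF-KO cells held it at 30.16 and 25.49 FPKM without RA, against 108.40 and 91.20 FPKM with it. With RA the WT and BATF-KO ranges overlapped, and both lay above every untreated library. In RARα-KO it was at 36.44 and 14.00 FPKM without RA, against 78.31 and 55.03 FPKM with it. Each of the 6 cultures with RA was above each of the 6 without, a pattern that 56 of the 13396 tested genes (0.418%) shared. Compared with the untreated culture of the same genotype and number, the level was between 2.15-fold and 5.34-fold higher.

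On the log2(FPKM + 1) scale the RA effect on Ccr9 was 1.98 ± 0.39 (SE) in WT, 1.81 ± 0.39 in BATF-KO and 1.49 ± 0.39 in RARα-KO, with n = 2 libraries per group. By size it stood at place 14, 20 and 16 from the top of 13396 genes. In the fit to the 6 group means, none of the 3 passed the threshold (limma, adjusted p = 0.205, 0.256 and 1), and few genes did, namely 9 in WT (0.0672%), 21 in BATF-KO (0.157%) and 1 in RARα-KO (0.00746%). Cultures of a genotype that carried the same number deviated together from their group means and were treated as pairs. Same-numbered cultures of different genotypes also deviated together. The correlation was 0.452 for untreated WT and RARα-KO, against 0.427 for WT without and with RA. The correlations therefore do not by themselves mark pairs within a genotype, and what same-numbered cultures share was not tested. With the replicate block that uses these pairs, Ccr9 rose with RA in WT (limma, adjusted p = 0.0299) and in BATF-KO (limma, adjusted p = 0.0324), while the RARα-KO value stayed outside the threshold (limma, adjusted p = 0.248). That fit called 70 genes in WT (0.523%), 119 in BATF-KO (0.888%) and 11 in RARα-KO (0.0821%).

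The mean of the 3 RA effects, a contrast added after the values were seen, was 1.76 ± 0.23 for Ccr9 with a 95% interval of 1.25 to 2.27. It passed the threshold (limma, adjusted p = 0.00962, and 0.00291 with the replicate block), and it did so under each of the 24 alternative settings, with adjusted p from 0.00104 to 0.0483. Of all tested genes, 64 (0.478%) were called for this mean effect and 464 (3.46%) with the block. Ccr9 was the only 1 of the 5 members called in either fit.

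**Figure D1:**
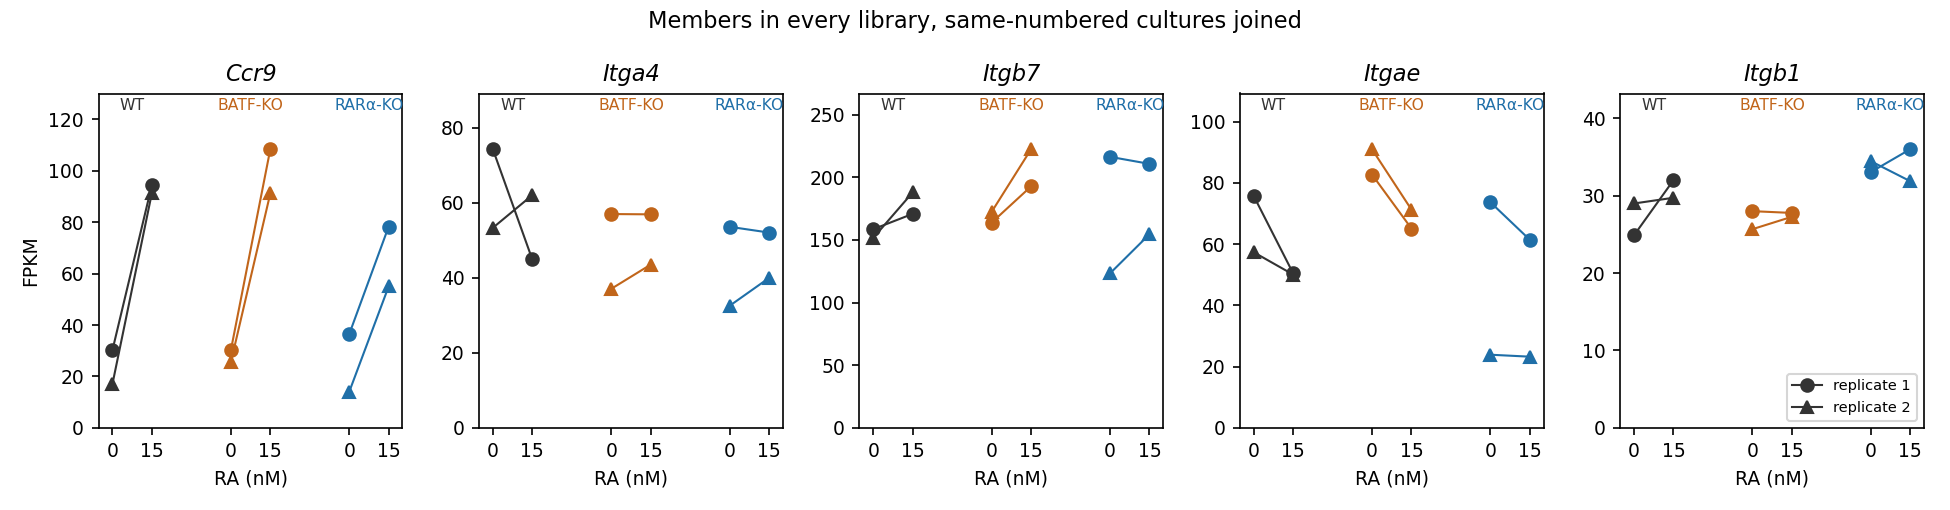
FPKM (y axis, from 0) of the 5 members in each of the 12 libraries, by RA dose (x axis, nM) and genotype, with circles for replicate 1, triangles for replicate 2 and a line joining the cultures with the same number. Ccr9 climbs in all 6 pairs, Itgae is lower with RA in all 6, and the RARα-KO replicates differ in Itgae by 73.66 against 23.87 FPKM without RA.

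Neither knockout was shown to change the Ccr9 response. The RA effect in RARα-KO minus that in WT was -0.49 ± 0.56, with a 95% interval from -1.74 to 0.76 (limma, adjusted p = 1, and 0.584 with the replicate block). The same difference for BATF-KO was -0.18 ± 0.56, with an interval from -1.43 to 1.07 (limma, adjusted p = 1). Leaving out 1 library at a time moved the RARα-KO difference between -1.15 (without the untreated RARα-KO replicate 2) and 0.17 (without the untreated RARα-KO replicate 1), and the RA effect within RARα-KO between 0.83 and 2.15 in the same order, so single libraries decide their size. The intervals include both no difference and the loss of a large share of the response. No gene in the table was called for either difference of RA effects (0%), with 184 genes for RARα-KO and 150 for BATF-KO at an unadjusted p under 0.05. With RA present, the 2 RARα-KO libraries were below the 2 WT libraries in Ccr9, a difference of -0.50 ± 0.39 (limma, adjusted p = 0.724). Without RA the RARα-KO and WT ranges overlapped, at 25.22 ± 15.9 and 23.7 ± 9.31 FPKM (SD, n = 2). Ordered by mean, the groups ran from BATF-KO with RA through WT with RA to RARα-KO with RA, followed by the 3 untreated groups. The first neighbours in that order overlapped, RARα-KO with RA was apart from its neighbours on both sides, and the untreated groups all overlapped.

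The genes beside Ccr9 on chromosome 9 give this response a local context. Of the 5 protein-coding neighbours on each side in the RefSeq annotation of GRCm38, 5 passed the filter. They were looked up after the RA results were seen. Lztfl1 (123694404 to 123717625), the adjacent gene on the lower-coordinate side and known for a role in ciliary transport, was at 18.43 to 34.31 FPKM in the 6 libraries without RA and at 53.72 to 95.85 FPKM in the 6 with RA. It rose by the mean RA effect of 1.48 ± 0.13 (limma, adjusted p = 0.00107) and did so in 6 of 6 pairs. Of all tested genes, 1055 (7.88%) were higher with RA in all pairs and 750 (5.6%) were lower in all pairs. Cxcr6 (123806477 to 123811754), the receptor for CXCL16 and another marker of tissue-homing T cells, lay on the other side and was lower with RA in 6 of 6 pairs. Its level was 31.42 to 42.41 FPKM without RA and 21.63 to 31.99 FPKM with RA, and its mean RA effect of -0.43 ± 0.09 was called with the replicate block only (limma, adjusted p = 0.101, and 0.0172 with the block). Fyco1, whose annotated span encloses Cxcr6, differed by -0.27 ± 0.14, Sacm1l by 0.03 ± 0.09 and Limd1 by -0.11 ± 0.09, and none of these was called. Reads of the nested Fyco1 and Cxcr6 may be split by the counting.

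**Figure D2:**
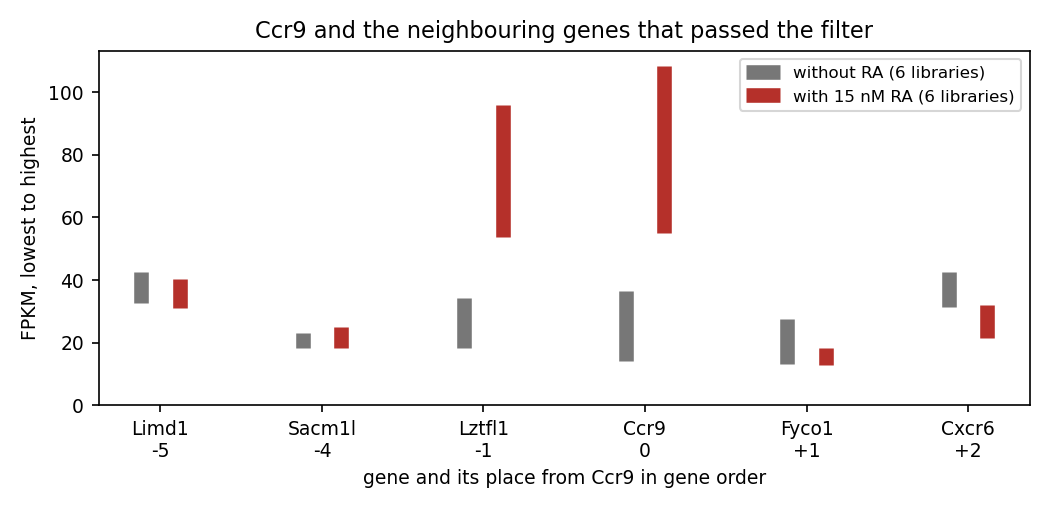
Lowest to highest FPKM (y axis, from 0) over the 6 libraries without RA (grey) and the 6 with 15 nM RA (red) for Ccr9 and the 5 neighbouring genes that passed the filter, placed by gene order. The grey and red bars are apart for Lztfl1 and Ccr9, with 34.31 below 53.72 and 36.44 below 55.03 FPKM, and overlap for the other genes.

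Itgb7 (ENSMUSG00000001281, chromosome 15, 102215994 to 102233405), the β chain shared by α4β7 and αEβ7, was the highest integrin transcript of these cells. In WT it was at 158.50 and 151.54 FPKM without RA, against 170.76 and 187.89 FPKM with it. In BATF-KO the values were 163.73 and 172.28 FPKM without RA and 192.67 and 222.33 FPKM with RA. In both genotypes the RA cultures lay above the untreated ones without overlap. The RARα-KO replicates spread from 216.26 to 123.22 FPKM without RA and from 210.64 to 154.45 FPKM with RA, so there the groups overlapped. RA cultures were higher in 5 of 6 pairs, at ratios from 0.974 to 1.29.

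The RA effect on Itgb7 was 0.21 ± 0.24 in WT, 0.30 ± 0.24 in BATF-KO and 0.14 ± 0.24 in RARα-KO, and none passed the threshold (limma, adjusted p = 0.919, 1 and 1). This SE of 0.24 is pooled over all 6 groups. From the compared groups alone it was 0.12 in WT, 0.11 in BATF-KO and 0.33 in RARα-KO, again without a call. The mean effect was 0.22 with a 95% interval of 0.07 to 0.36 under the replicate block, and it was not called (limma, adjusted p = 0.115). Between genotypes Itgb7 differed from WT by at most 0.21 on the log2 scale, in BATF-KO with RA.

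Itga4 (ENSMUSG00000027009, chromosome 2, 79255426 to 79333114), the partner chain in α4β7, did not share the Ccr9 pattern. In WT it was at 74.31 and 53.35 FPKM without RA, against 44.90 and 62.07 FPKM with it, so the numbered cultures moved in opposite directions. In BATF-KO it was at 57.02 and 37.07 FPKM without RA, against 56.94 and 43.53 FPKM with it. The RARα-KO values were 53.62 and 32.54 FPKM without RA and 52.08 and 39.98 FPKM with RA. Every neighbouring pair of groups overlapped in the order of the means, which ran from 63.83 ± 14.8 FPKM in untreated WT to 43.08 ± 14.9 FPKM in untreated RARα-KO (SD, n = 2). RA cultures were higher in 3 pairs and lower in 3, the mean RA effect was 0.00 ± 0.18 (95% interval -0.40 to 0.39), and the largest genotype difference, -0.58 ± 0.31 in RARα-KO without RA, was not called (limma, adjusted p = 0.643).

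Itgae (ENSMUSG00000005947, chromosome 11, 73090505 to 73147449), which encodes αE, was lower with RA in 6 of 6 pairs, a direction that 750 of the tested genes (5.6%) kept in all pairs. In WT it was at 75.76 and 57.34 FPKM without RA, against 50.48 and 50.05 FPKM with it. In BATF-KO it was at 82.70 and 90.96 FPKM without RA, against 65.07 and 71.24 FPKM with it. These groups did not overlap within either genotype. In RARα-KO the values were 73.66 and 23.87 FPKM without RA and 61.39 and 23.23 FPKM with RA, and without RA the gap between the replicates was larger than any difference between group means.

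The RA effect on Itgae was -0.38 ± 0.50 in WT, -0.34 ± 0.50 in BATF-KO and -0.15 ± 0.50 in RARα-KO, none of them called (limma, adjusted p = 0.926, 1 and 1). This SE of 0.50 is pooled over all 6 groups, including the widely spread RARα-KO replicates, and also applies to the genotype differences below. From the compared groups alone, the SE of the RA effect was 0.17 in WT, 0.10 in BATF-KO and 0.72 in RARα-KO. No RA effect on Itgae was called there either. With the replicate block the mean effect was -0.29 ± 0.06, with a 95% interval from -0.44 to -0.14, and it missed the threshold (limma, adjusted p = 0.0628). BATF-KO cells held more Itgae than WT without overlap in both conditions, by 0.39 ± 0.50 without RA and 0.43 ± 0.50 with RA, and neither difference was called (limma, adjusted p = 1 and 1). RARα-KO differed from WT by -0.64 ± 0.50 and -0.40 ± 0.50 (limma, adjusted p = 0.867 and 0.856), and these values depended on which replicate was used. Without both libraries of RARα-KO replicate 1 they were -1.43 and -1.08 (limma, adjusted p = 0.0128 and 0.0298), and without both of replicate 2 they were 0.16 and 0.28 (limma, adjusted p = 1 and 0.573), each fit resting on 1 RARα-KO library per condition that is assumed to vary like the other groups. In replicate 2, where Itgae was low, the CD8 T cell markers summed to 3464 and 3332 FPKM, against 4170 and 4031 FPKM in replicate 1, and Cre was lower as well. Whether either played a part was not tested.

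Itgb1 (ENSMUSG00000025809, chromosome 8, 128685654 to 128733579), the alternative partner of α4, had the narrowest range of the 5 genes, from 24.87 to 35.99 FPKM. WT cells held it at 24.87 and 28.98 FPKM without RA, against 31.99 and 29.72 FPKM with it. The BATF-KO libraries were at 27.99 and 25.66 FPKM and then 27.76 and 27.26 FPKM, and the RARα-KO libraries at 33.03 and 34.45 FPKM and then 35.99 and 31.86 FPKM, each without RA first. RARα-KO lay above WT without overlap in the absence of RA, by 0.32 ± 0.12 (95% interval 0.04 to 0.60), which was not called over all genes (limma, adjusted p = 0.372). The B cell marker sum given above was also higher in those libraries, B cells express Itgb1 too, and its part was not tested. RA changed the mean level by 0.08 ± 0.07 (limma, adjusted p = 0.961).

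**Figure D3:**
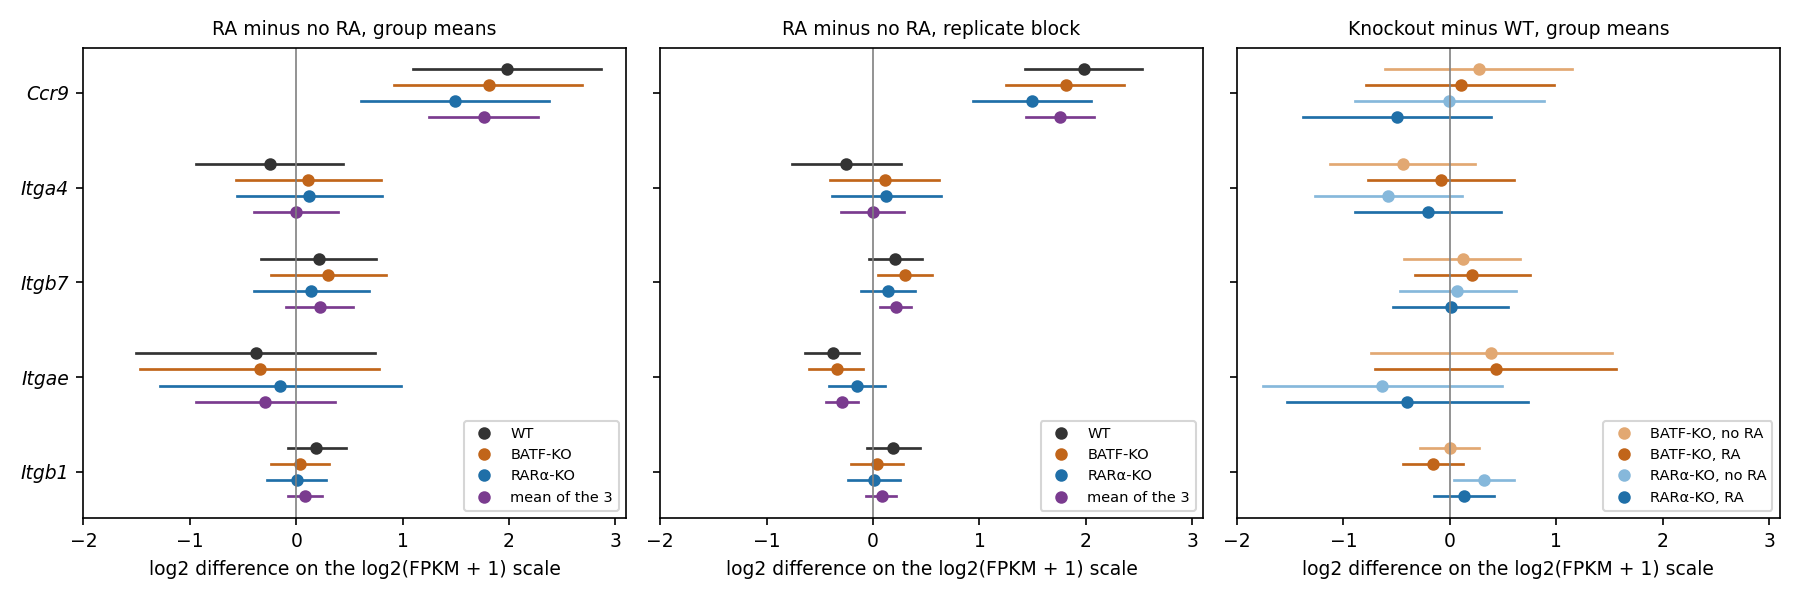
Log2 differences (x axis, log2(FPKM + 1) scale) with 95% intervals for the 5 members, showing RA minus no RA from the fit to group means (left) and with the replicate block (middle), and each knockout minus WT (right). The Ccr9 intervals for RA lie above 0 in every genotype. Those of the integrin genes in the fit to group means include 0, except for Itgb1 in untreated RARα-KO (0.04 to 0.60). With the replicate block, the RA intervals also exclude 0 for Itgae in WT (-0.64 to -0.13) and BATF-KO (-0.60 to -0.09). The same holds for Itgb7 in BATF-KO (0.05 to 0.55). It also holds for the mean over the 3 genotypes, drawn beside them, in Itgae (-0.44 to -0.14) and Itgb7 (0.07 to 0.36). None of these was called over all genes.

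Counted over the members, none was called in the fit to group means for RA in any genotype, for BATF-KO against WT without RA (0.0523% of all genes called) or with RA (0.0672%), or for RARα-KO against WT without RA (3.29%) or with RA (3.76%). Groups that do not overlap are common with 2 libraries each. For RA, 4 of the 5 members did not overlap in WT, where 34% of all tested genes did not, 3 did not in BATF-KO (31.7% of all genes), and 1 did not in RARα-KO (14.8%). For BATF-KO against WT the count was 2 without RA (26.9%) and 3 with RA (31.3%). For RARα-KO against WT it was 1 without RA (29.1%) and 1 with RA (37.9%).

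The balance between transcripts of chains that compete for a partner was read from ratios of FPKM within each library. These ratios do not measure the chains as protein or their pairing. Itgb7 exceeded Itgb1, the other partner of α4, by 3.58-fold to 8.16-fold in the 12 libraries. The lowest ratios were in the RARα-KO replicate 2 libraries, 3.58 without and 4.85 with RA, and the highest in BATF-KO replicate 2 with RA. Itgae and Itga4, the chains that share β7, were near parity in WT, at ratios of 1.02, 1.07, 1.12 and 0.806. In BATF-KO the ratio of Itgae to Itga4 was 1.45 and 2.45 without RA and 1.14 and 1.64 with RA, so each BATF-KO library was above each WT library. The gap was wider in replicate 2 (2.45 and 1.64 against 1.07 and 0.806) than in replicate 1 (1.45 and 1.14 against 1.02 and 1.12). The difference in log2 ratio, BATF-KO minus WT, was 0.69. Its exact two-sided permutation p of 0.0556 is the smallest that shuffling within RA conditions allows (adjusted p = 0.333 over the 6 ratio tests). This test counted same-numbered cultures with and without RA as independent, although they were treated as pairs above. Its p-value may therefore be too small, and no genotype difference is concluded from it. The other 5 ratio tests also shuffled libraries without keeping pairs together. These exact permutation tests within genotype or RA condition gave unadjusted p from 0.111 to 0.667. The log2 difference under RA was 0.14 for Itgb7 to Itgb1 and -0.29 for Itgae to Itga4.

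**Figure D4:**
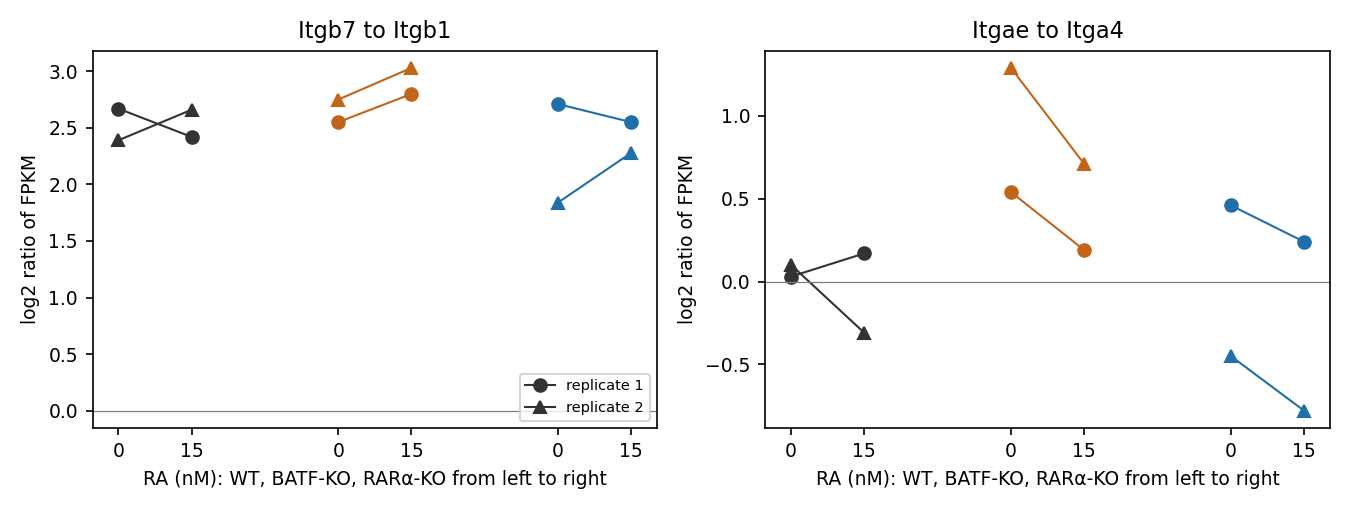
Log2 ratio of FPKM (y axis) of Itgb7 to Itgb1 (left) and of Itgae to Itga4 (right) in every library, by RA dose (x axis, nM) and genotype, with circles for replicate 1, triangles for replicate 2 and lines joining the same number. All Itgb7 to Itgb1 values lie between 1.84 and 3.03, and the 4 BATF-KO values of Itgae to Itga4 (0.19 to 1.29) lie above the 4 WT values (-0.31 to 0.17).

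Within the integrin family these members were among the main transcripts. Of 26 subunit genes, 16 passed the filter, 7 were at 10 FPKM or more in every library, and 10 stayed under 1 FPKM throughout. Ranked by the median over the 12 libraries, Itgb7 came first at 171.52 FPKM, Itgae was at place 4 (63.23 FPKM), Itga4 at place 5 (52.72 FPKM) and Itgb1 at place 7 (29.35 FPKM). The chains of LFA-1, Itgb2 and Itgal, which bind ICAM-1, stood between them at medians of 118.34 and 99.84 FPKM. Itgb2 gained 0.30 ± 0.08 under RA on average, a change called with the replicate block only (limma, adjusted p = 0.258, and 0.0268 with the block), and Itgal differed by -0.21 ± 0.13. Itga6, a laminin receptor chain, was at a median of 37.22 FPKM and differed by -0.25 ± 0.12 under RA, and Itgav at 10.16 FPKM by -0.10 ± 0.08. Of the other 10 α and 2 β subunits tested, 1 was called in the fit to group means, Itgam, the α chain of the myeloid integrin Mac-1. It was higher in RARα-KO than in WT with RA by 1.13 ± 0.23 (limma, adjusted p = 0.0226), at 3.36 and 2.18 FPKM against 0.76 and 0.64 FPKM. The 9 myeloid markers summed to 95 to 156 FPKM in RARα-KO and to 24.7 to 88.2 FPKM in the other libraries. The 9 NK cell markers summed to 77.2 to 100 FPKM in RARα-KO and to 34 to 79.6 FPKM in the others, and 4 of the 9 were called higher in RARα-KO than in WT with RA, at a list median of 1.39 against -0.01 over all genes. NK cells and myeloid cells both carry Mac-1, and their part in this was not tested.

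**Figure D5:**
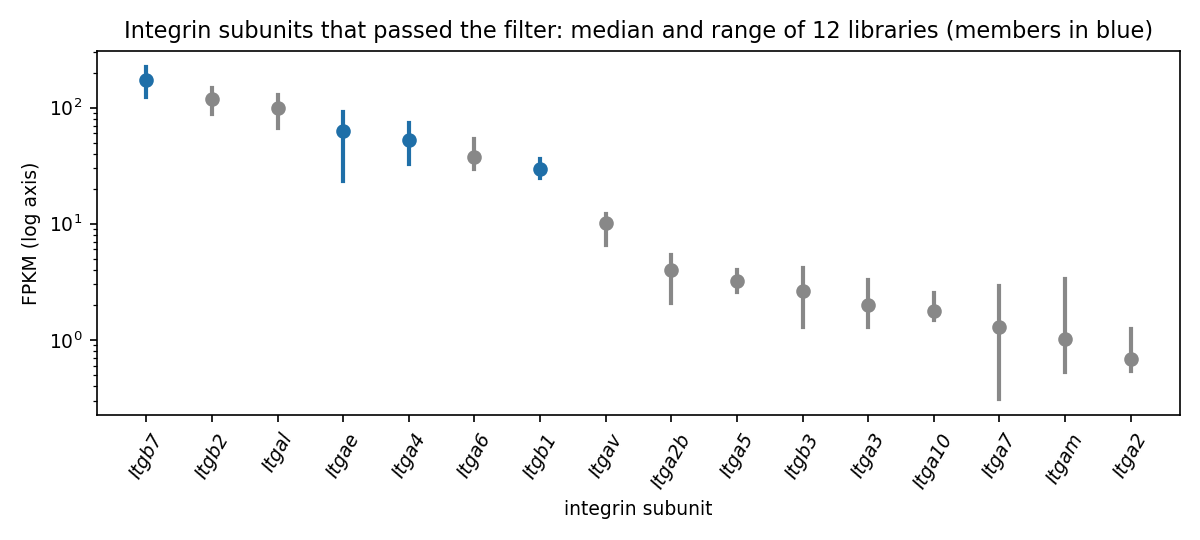
FPKM on a log axis (y) for the 16 integrin subunits that passed the filter (x axis, ordered by median), with the point at the median and the line from the lowest to the highest of the 12 libraries, members in blue. Itgb7 leads at a median of 171.52 FPKM, and Itgae has the widest spread on the log axis among the integrin members, from 23.23 to 90.96 FPKM.

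Other homing receptors did not follow Ccr9. Of 24 chemokine and homing receptors listed beside it, 19 passed the filter and none was called for RA in any genotype or for the mean RA effect in the fit to group means. Their median RA effect in WT was -0.10, against 0.00 over all tested genes. Ccr7, a receptor for homing to lymph nodes, was high in every library, at 225.59 to 337.58 FPKM. Gpr15, a receptor that directs T cells to the large intestine, was at 0.42 to 2.27 FPKM, and the skin-homing and mucosal receptor gene Ccr10 at 0.13 FPKM or less. In RARα-KO against WT, 2 of the 19 were called without RA and again with RA, and both were higher. Cxcr5, the follicle-homing receptor, differed by 1.79 ± 0.28 and 1.54 ± 0.28 (limma, adjusted p = 0.00626 and 0.0125), and Ccr6, the receptor for CCL20, by 2.07 ± 0.33 and 1.99 ± 0.33 (limma, adjusted p = 0.00717 and 0.00837). B cells express both, the B cell marker sum was higher in the same libraries, and its part was not tested. Ccr2, a receptor of monocytes and effector T cells, was at most 5.10 FPKM and was not called.

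Ligands of the gut receptors were mostly near 0 in the cultures, while ligands of other adhesion receptors were not. Madcam1 was at 0.02 to 0.23 FPKM, Vcam1 at 0.22 FPKM or less, Fn1 at 0.26 FPKM or less and Cdh1 (E-cadherin) at 0.31 to 1.65 FPKM, while Ccl25 was listed at 6.29 to 12.29 FPKM. Icam1 and Icam2, ligands of LFA-1, were at 23.75 to 54.69 and 38.92 to 60.53 FPKM, and the adhesion molecule gene Jaml at 8.26 to 29.76 FPKM. Spp1 (osteopontin) reached at most 2.68 FPKM and Thbs1 (thrombospondin) 0.25 FPKM. None of the 6 ligand genes tested was called in any comparison of the fit to group means. Jaml differed by a mean RA effect of -0.41 ± 0.20, called with the replicate block only (limma, adjusted p = 0.883, and 0.0424 with the block). Of 29 genes for integrin activation and adhesion adaptors, such as Ptk2b, a kinase of the focal adhesion family, 24 were tested. None was called in any comparison of the fit to group means. Their median difference for RA in WT was -0.07. The tetraspanin gene Cd81 came nearest, at 0.79 ± 0.19 in RARα-KO without RA (limma, adjusted p = 0.0561).

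Among 20 genes of the TGF-β pathway and of tissue residency, 18 were tested and 1, Hic1, was called. Hic1 encodes a zinc finger repressor that RA is known to induce in intestinal T cells. Untreated WT cells held 1.46 and 1.18 FPKM, RA-treated WT cells 26.99 and 26.17 FPKM, and the gene rose by 3.57 ± 0.36 (limma, adjusted p = 0.00617). In BATF-KO it rose by 2.80 ± 0.36 (limma, adjusted p = 0.0189), and in RARα-KO it was at 2.62 and 2.33 FPKM without RA, against 10.19 and 28.31 FPKM with it. Runx3 and Smad3, known regulators of Itgae, differed by -0.01 ± 0.08 and 0.34 ± 0.09 for the mean RA effect, and Smad3 was called with the replicate block only (limma, adjusted p = 0.256, and 0.0316 with the block). Cd69, the residency and activation marker, differed by 0.00 ± 0.12.

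Part of a reference list for the RA response rose with RA as well. Of 14 retinoid receptors and known RA targets 10 were tested, and for the mean RA effect 4 were called, all higher, while 7 of the 10 were higher and 3 lower by estimate, with a list median of 0.82 against 0.01 over all genes. Dhrs3, a retinaldehyde reductase and known RA target, rose by 4.40 ± 0.30 in WT (limma, adjusted p = 0.00101), where it was at 0.31 and 0.24 FPKM without RA, against 28.94 and 23.11 FPKM with it. In RARα-KO it reached 9.41 and 5.20 FPKM with RA, lower than WT by -1.74 ± 0.30 (limma, adjusted p = 0.00967). Nt5e (CD73), an ectonucleotidase, was lower in RARα-KO than in WT by -1.95 ± 0.28 without RA and -2.05 ± 0.28 with RA (limma, adjusted p = 0.00457 and 0.00323). Asb2 and P2rx7 were the other 2 called, at mean RA effects of 1.47 ± 0.13 and 2.25 ± 0.24 (limma, adjusted p = 0.000954 and 0.00311). Without RA both were higher in RARα-KO than in WT, by 1.14 ± 0.22 and 1.89 ± 0.42 (limma, adjusted p = 0.0205 and 0.0416), opposite to Nt5e. With RA their means were also higher in RARα-KO than in WT, at 3.59 against 2.6 FPKM for Asb2 and 10.6 against 5.13 FPKM for P2rx7. Neither of these differences was called (limma, adjusted p = 0.606 and 0.506). For Ccr9 the RARα-KO value with RA was the lowest of the RA groups, as for Dhrs3 and Nt5e but not for Asb2 and P2rx7. The Ccr9 difference from WT, given above, was not called.

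Of 10 genes for BATF, its partners and NFAT factors, all tested, Batf itself was lower in BATF-KO, by -2.10 ± 0.26 without RA and -2.04 ± 0.26 with RA (limma, adjusted p = 0.0358 and 0.0317). Jun, the AP-1 partner of BATF, rose with RA by a mean effect of 0.68 ± 0.06 (limma, adjusted p = 0.00118) and in BATF-KO by 0.95 ± 0.11 (limma, adjusted p = 0.00956). In WT it differed by 0.71 ± 0.11, called with the replicate block only (limma, adjusted p = 0.0724, and 0.0161 with the block). Irf8, a partner factor of BATF, differed by 0.99 ± 0.34 in WT and 1.11 ± 0.34 in BATF-KO, both called with the block only (limma, adjusted p = 0.0371 and 0.0198 with it, 0.845 and 0.779 without). Jun was also higher in RARα-KO than in WT without RA by 0.72 ± 0.11 (limma, adjusted p = 0.0055). Beside these calls, no member differed between BATF-KO and WT beyond the test, and the intervals were wide, for example -0.79 to 0.98 for Ccr9 with RA.

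The genes whose levels ran most like each member over the 12 libraries were taken from 1916 genes with enough level and spread. These correlations describe libraries that share treatment, genotype and cell makeup. For Ccr9 they were Trpc4ap (Pearson r = 0.97), Arrdc4 (0.955), Dhrs3 (0.948), Sp3 (0.945) and Prrt1 (0.933). Itgae ran most closely with Cd96 (0.978), Mxd4 (0.969), Haspin (0.964) and the CD3 chains Cd3g (0.958) and Cd3d (0.957), of which Cd96, Cd3g and Cd3d are T cell genes. Haspin lies within the annotated span of Itgae, so reads of these genes may be split by the counting. Itgb1 was most like Ifrd1 (0.912), Dusp5 (0.882), Vmp1 (0.876), the B cell coactivator gene Pou2af1 (0.867) and Rnf157 (0.864). For Itga4 the list was led by Stk38 (0.899), Zfp287 (0.88), Airn (0.876), Adcy7 (0.876) and Usp28 (0.867), and for Itgb7 by Tubb3 (0.888), Tiparp (0.866), Sp3 (0.771), Rab37 (0.755) and Dcun1d3 (0.745). Among the members themselves, Ccr9 and Itgb7 correlated at 0.69, Itga4 and Itgb7, the 2 chains of α4β7, at 0.33, and Itgae and Itgb1 at -0.58.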

How the data were processed

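Per the labels and the study's methods, poly-A-enriched libraries were sequenced as paired-end reads of 150 bp, and the authors aligned them with STAR 2.7.8a to GRCm38 (ENSEMBL) and quantified genes with RSEM 1.3.3. The labels also name a total RNA kit. The deposited values are FPKM to 2 decimals, as the authors made them, with no further scaling between libraries stated. The absolute depth is unknown, so no counting interval is given. The relative depth read from low values was 0.966 to 1.35, with WT replicate 1 at 1. RA was read from the sample titles, since the treatment label is the same for all samples.

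FPKM was transformed as log2(FPKM + 1), which understates changes of low genes, and modelled by 6 group means over 12 libraries in limma 3.58.1 (R 4.3.3) with a mean-variance trend (6 residual and 3.39 prior degrees of freedom). Two-sided p-values were adjusted by Benjamini-Hochberg over the 13396 tested genes within each comparison and called under 0.05. Values are means ± SD, and log2 differences ± SE. The scripts were tested on simulated data. Ratios were tested by exact permutation within genotype (216 arrangements) or within RA condition (36 arrangements). Same-numbered cultures were not kept together in these permutations. Tables and plots used Python 3.11.15, pandas 2.3.3, numpy 2.4.6 and matplotlib 3.10.9.

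Deviations from the group means of same-numbered cultures with and without RA correlated at 0.427 in WT, 0.398 in BATF-KO and 0.578 in RARα-KO. They were therefore treated as pairs for RA effects in a fit that blocks on each genotype and number (3 residual degrees of freedom). The pairing comes from the numbers in the labels and from these correlations. Same-numbered libraries of different genotypes correlated as well, at 0.0795 to 0.452, so the correlations are not specific to pairs within a genotype.

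Named genes are the members, up to 4 genes per list with the smallest adjusted p, integrin subunits with a group mean of at least 10 FPKM, and the 5 genes most like each member (group mean of at least 5 FPKM, span of at least 0.5 log2). Neighbours of Ccr9, receptor and ligand levels outside that rule, the mean RA effect and the removal of both libraries of a RARα-KO replicate were chosen after values were seen. The members and lists were chosen with earlier results of these data known. Alternatives changed the pseudocount, filter, scaling, weights, block and libraries used. Positions come from RefSeq on GRCm38.p6. A planned search for promoter motifs was not run, and no sequences are shown. Some genes that the rule would name are not reported here.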

Additional observations from a re-analysis of the deposited data

Results flagged for a closer look

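The Cre transgene was not among the genes tested above, but its level went with genotype in every RARα-KO comparison. It was high in the RARα-KO libraries, at 824.25 (no RA) and 680.90 FPKM (RA) in replicate 1. In replicate 2 it was at 79.29 (no RA) and 86.67 FPKM (RA). The WT and BATF-KO libraries held at most 0.13 FPKM. No member met the criteria for a sample far from its group, since groups of 2 are not tested, or for RA effects that differ between genotypes.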

How the results depend on the processing

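Over 24 alternatives for each of 50 member results, 1191 of 1200 values kept their side of the threshold. The other 9 moved past it. The RA effect on Ccr9 in WT stayed at 1.98 and was called with the replicate block, and the effect in BATF-KO stayed at 1.81 and was called with the replicate block and with array weights (limma, adjusted p = 0.0362). Both were also called without the untreated library of RARα-KO replicate 1 or of replicate 2 (limma, adjusted p from 0.0388 to 0.042). Leaving out 1 library at a time gave 1.59 to 2.37 in WT, 1.68 to 1.93 in BATF-KO and 0.83 to 2.15 in RARα-KO, and adjusted p over all alternatives ran from 0.0299 to 0.959, 0.0324 to 1 and 0.179 to 1. Itgae in RARα-KO against WT became -1.43 without RA and -1.08 with RA when both libraries of RARα-KO replicate 1 were left out. The cause was not tested. The replicate block changed no other call of a member. The ratio results moved by less than the spread between replicates under a pseudocount of 1 and without each library in turn.

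Counts of called genes moved more. For RA in WT, 9 genes became 16 with a pseudocount of 0.1, 21 without a filter, 0 from the compared groups alone and 70 with the block. In BATF-KO, 21 became 50 with array weights, 1 from the compared groups alone and 119 with the block, and in RARα-KO 1 became 12 without a filter and 11 with the block. For BATF-KO against WT, 9 genes with RA became 18 without a filter and 1 from the compared groups alone, and 7 without RA became 0 from the compared groups alone. For RARα-KO against WT, 441 genes without RA became 80 and 504 with RA became 320 from the compared groups alone, and 219 and 266 without both libraries of RARα-KO replicate 2. Same-numbered libraries of different genotypes had deviations that correlated at 0.0795 to 0.452. What such numbers share is not given in the labels, and no pairing was used there. A block on that number gave 21 genes for BATF-KO against WT in each condition. The differences of RA effects, at 0, reached 14 and 16 genes without a filter. Leaving out 1 library at a time gave 4 to 16 genes for RA in WT (16 without either untreated RARα-KO library, 4 without either untreated WT library or WT with RA replicate 2), 3 to 28 in BATF-KO (3 to 9 without a BATF-KO library), 0 or 1 in RARα-KO, 1 to 5 (untreated) and 4 to 8 (RA) for BATF-KO against WT, and 247 to 423 (untreated) and 246 to 499 (RA) for RARα-KO against WT. The absolute depth is unknown. Promoter motifs were not run.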
